A study of Mus musculus with 8 samples.

Results

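Collagens, laminins and integrins are the ligands and receptors through which cells hold on to the extracellular matrix, and PRDM16-enriched regions at their genes were compared between Prdm16 mutant and control embryonic mouse cortex. The members were all protein-coding genes of the RefSeq table whose symbol starts with Col and a digit, with Lama, Lamb or Lamc and a digit, or with Itga or Itgb and a digit. That gave 79 of 21887 protein-coding genes, made up of 44 collagen, 11 laminin and 24 integrin symbols. Of the 24, Itgb1bp1, Itgb1bp2 and Itgb3bp encode no integrin subunit, and none of the 3 had a region in any list. A region belonged to a gene when its summit lay in the gene, or within 100 kb of the nearer end with no protein-coding gene closer.

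PRDM16, a chromatin regulator with zinc fingers and a PR domain, is made by the radial glia from which cortical neurons arise. Sites it occupies were mapped by ChIP-seq, in which DNA bound to the protein is pulled down with an antibody and sequenced, from E15.5 cortex crosslinked with PFA and EGS. The conditional knockout (cKO) embryos were Emx1Ires-Cre; Prdm16flox/flox, and the control embryos, labelled WT, were Prdm16 flox/flox without Cre, so both groups carried the floxed alleles. Each group had 2 ChIP libraries. Cre from the Emx1 locus acts in the dorsal telencephalic lineage, so cells of other origins in the lysate, such as interneurons, blood vessel cells, meningeal cells and microglia, are not targeted. In a whole-tissue lysate, a site bound in few cells and a site bound weakly in many cannot be told apart. Peak lists hold no expression values, so neither the loss of PRDM16 nor the tissue's marker genes could be checked, and no label says whether a library pools embryos.

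Collagens are triple-helical proteins that form fibrils or the sheet-like network of basement membranes. Laminins are cross-shaped trimers of an alpha, a beta and a gamma chain, and they start the assembly of basement membranes. Integrins are heterodimers of an alpha and a beta subunit that bind these ligands at the cell surface. In the developing cortex, radial glia anchor their end-feet to the basement membrane under the pia through laminin-binding integrins, and breaks in that membrane let neurons migrate out of the brain.

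Promoter windows of 300 bases, running from 250 before to 50 after an annotated start (RefSeq, GRCm38.p6, which is mm10), were given for 58 of the 79 genes. A peak of any library touched 8 of their 64 windows (12.5%), at 8 genes, against 14.6% of the windows of all protein-coding genes. The windows of 3 genes are shown, because they carry the clearest case of each kind. Itgb8 was covered by peaks of both WT replicates with no cKO peak, Col27a1 by cKO peaks in both replicates with no WT peak, and Itgb1 in WT replicate 1 alone. Capitals mark every match to CANNTG (E-box), TAATTA (homeobox), TTGGC (core of the nuclear factor I site), ACAAT (SOX), GGGCGG (GC box), CCAAT or TATAAA, on either strand.
Itgb8, chr12:119238227-119238526, minus strand: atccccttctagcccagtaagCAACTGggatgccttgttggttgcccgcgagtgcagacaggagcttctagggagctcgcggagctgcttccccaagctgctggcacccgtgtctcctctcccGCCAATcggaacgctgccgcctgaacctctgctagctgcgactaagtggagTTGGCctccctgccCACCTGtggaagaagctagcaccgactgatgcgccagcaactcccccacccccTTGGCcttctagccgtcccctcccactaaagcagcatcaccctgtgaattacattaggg
Itgb1, chr8:128685404-128685703, plus strand: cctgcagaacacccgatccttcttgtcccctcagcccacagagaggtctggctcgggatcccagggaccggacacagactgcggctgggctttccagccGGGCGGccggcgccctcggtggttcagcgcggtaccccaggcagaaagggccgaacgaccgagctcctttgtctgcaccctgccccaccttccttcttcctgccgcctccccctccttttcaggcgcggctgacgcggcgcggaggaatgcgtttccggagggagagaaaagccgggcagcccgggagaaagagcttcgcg
Col27a1, chr4:63215162-63215461, plus strand: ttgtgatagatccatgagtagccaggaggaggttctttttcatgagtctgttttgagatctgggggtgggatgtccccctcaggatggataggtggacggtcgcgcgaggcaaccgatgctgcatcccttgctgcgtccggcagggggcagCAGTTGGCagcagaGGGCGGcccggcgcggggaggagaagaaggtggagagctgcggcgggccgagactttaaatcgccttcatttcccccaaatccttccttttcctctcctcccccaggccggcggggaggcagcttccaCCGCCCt
The Itgb8 window held 2 E-boxes, 3 TTGGC matches and 1 CCAAT match, the last sharing bases with a TTGGC match. The Col27a1 window held 2 GC boxes, 1 E-box and 1 TTGGC match that overlaps the E-box, and the Itgb1 window held 1 GC box. Matches of this kind are common: of 21263 windows of protein-coding genes, 69.0% held an E-box, 47.9% TTGGC, 46.2% a GC box, 38.2% CCAAT, 27.7% ACAAT, 12.6% TATAAA and 4.53% TAATTA. A match is a description of the letters and not a binding site.

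In the cKO lists the 3 families held far fewer regions than in the WT lists, as did the genome as a whole. The cKO lists had 25 and 19 regions at the 79 genes in replicates 1 and 2, and the WT lists had 56 and 147. Both cKO values lay below both WT values, and the mean was 22.0 ± 4.24 in cKO and 101.5 ± 64.3 in WT (SD, n = 2 each), a ratio of 0.217. For all regions of the lists the ratio was 0.189. An exact two-sided permutation test over the 4 libraries gave p = 0.333 (adjusted exact p = 0.533 over 8 values), and 0.333 is the smallest p that 2 libraries against 2 allow. At least 1 region was assigned to 19 and 16 of the 79 genes in cKO replicates 1 and 2 and to 38 and 53 in WT replicates 1 and 2. The same holds for 16.4% and 11.8% of all protein-coding genes in the cKO lists and for 23.6% and 34.5% in the WT lists.

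Relative to the length of the lists, the groups overlapped. As a share of all regions of a library, the 79 genes took 0.549% (95% Wilson interval 0.372 to 0.809) and 0.615% (0.394 to 0.959) in the cKO replicates. In the WT replicates they took 0.404% (0.311 to 0.525) and 0.552% (0.469 to 0.648). The WT replicate 2 value lay between the cKO values, and the groups were not separated (exact permutation p = 0.667, 2 libraries each). These shares also count regions assigned to no gene. Assigned were 4306 of 4553 and 2899 of 3088 regions in cKO, and a smaller part, 11260 of 13852 and 21886 of 26652, in WT. Relative to all protein-coding genes, assigned regions per megabase of nearest genome were 0.888 and 1.00 in cKO and 0.761 and 1.03 in WT. WT replicate 2 was then the highest. When every list was limited to its 3088 most significant regions, the length of the shortest list, the order turned round: 21 and 19 regions remained at the genes in cKO replicates 1 and 2 and 9 and 12 in WT replicates 1 and 2. The mean ratio was then 1.90. One library identifier is common to both WT libraries and another to both cKO libraries. What they mark is not stated, so genotype and any batch behind these identifiers cannot be told apart.

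**Figure D1:**
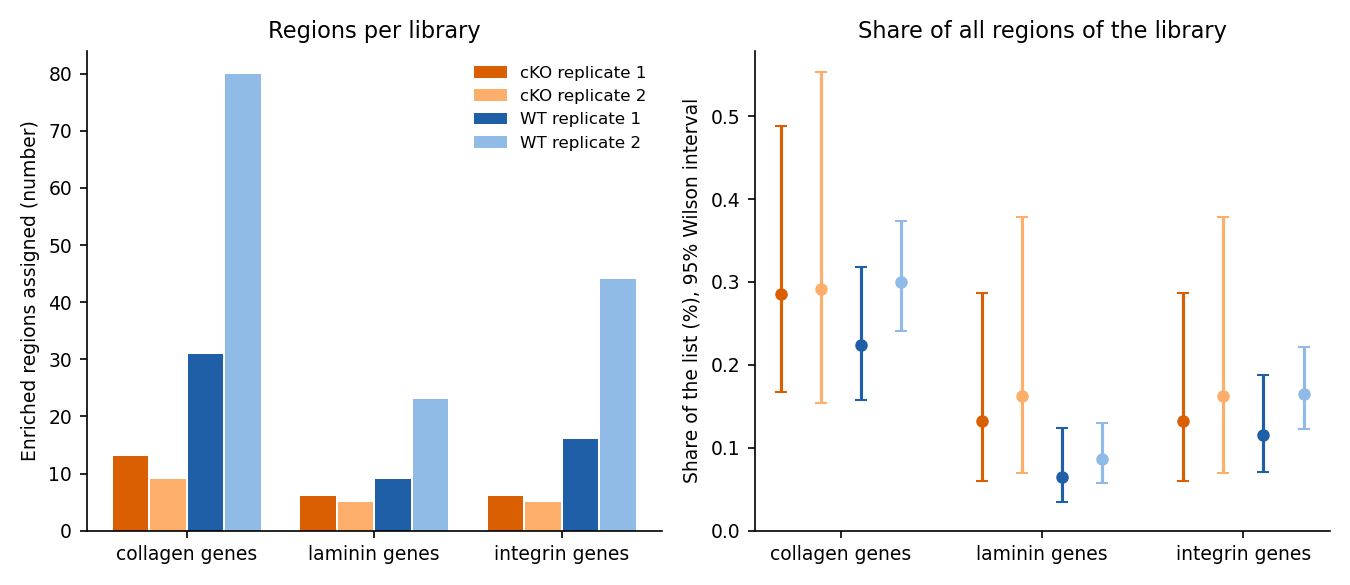
Number of regions (left) and share of all regions of the library in percent with 95% Wilson intervals (right) for collagen, laminin and integrin genes, with the 4 libraries in separate colours. Both cKO libraries have fewer regions than both WT libraries in each family, while the shares overlap for collagen and integrin genes.

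In region numbers, every family was lower in both cKO libraries. Collagen genes had 13 and 9 regions in the cKO replicates and 31 and 80 in the WT replicates, a ratio of means of 0.198. For integrin genes the numbers were 6 and 5 in cKO and 16 and 44 in WT, a ratio of 0.183. Laminin genes had 6 and 5 in cKO and 9 and 23 in WT, a ratio of 0.344. Without WT replicate 2 these ratios were 0.355 for collagen, 0.344 for integrin and 0.611 for laminin genes. Laminin genes were also the family whose share of the list was higher in both cKO libraries (0.132% and 0.162%) than in both WT libraries (0.0650% and 0.0863%). The intervals of single libraries overlapped, as these shares rest on 5 to 23 regions, and the exact permutation p was again 0.333, the smallest possible. Among assigned regions alone, laminin regions per megabase relative to all genes were 1.31 and 1.62 in cKO and 0.749 and 0.984 in WT.

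Regions found in both lists of a genotype were then counted. Both WT lists shared 42 regions at 28 of the 79 genes (35.4%), against 18.3% of all protein-coding genes. Of the 42, 37 overlapped no region in either cKO list (88.1%, against 90.7% for all genes), and these are called WT-only. They lay at 27 genes (34.2%), against a background of 16.6%. By family they lay at 16 of 44 collagen, 4 of 11 laminin and 7 of 24 integrin genes. Of the 27 genes, 17 had no region of any kind in a cKO list. The same count was not made for all genes with WT-only regions, so the 17 has no background share and is not a result about the members. The lists of cKO replicates 1 and 2 reached 16.4% and 11.8% of all protein-coding genes, so genes without a cKO region are common. Those shares cover genes with and without WT-only regions and cannot stand in for that background. When WT replicate 1 was left out, WT-only rests on replicate 2 by itself. The genes with WT-only regions then numbered 51, against a background of 32.2%. With lists of equal length they numbered 7, against 4.99%.

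The higher share of genes has to be read against gene size. The 79 genes had a median length of 77.1 kb and a median 147 kb of genome nearest to them, against 17.2 kb and 45.8 kb for all protein-coding genes. Counted per megabase of nearest genome, WT-only regions numbered 2.97 (95% Poisson interval 2.09 to 4.09) at the 79 genes and 3.84 (3.75 to 3.93) at all genes, a ratio of 0.772 (0.544 to 1.06). When WT replicate 1 was left out, the ratio was 1.03 (0.867 to 1.22), on the other side of 1. The density was 2.89 at collagen, 3.43 at laminin and 2.83 at integrin genes, and each of these family intervals included the value of all genes. Regions found in both cKO lists had a density of 1.20 (0.673 to 1.98) at the 79 genes and 0.845 (0.804 to 0.887) at all genes. The intervals cover counting error only.

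**Figure D2:**
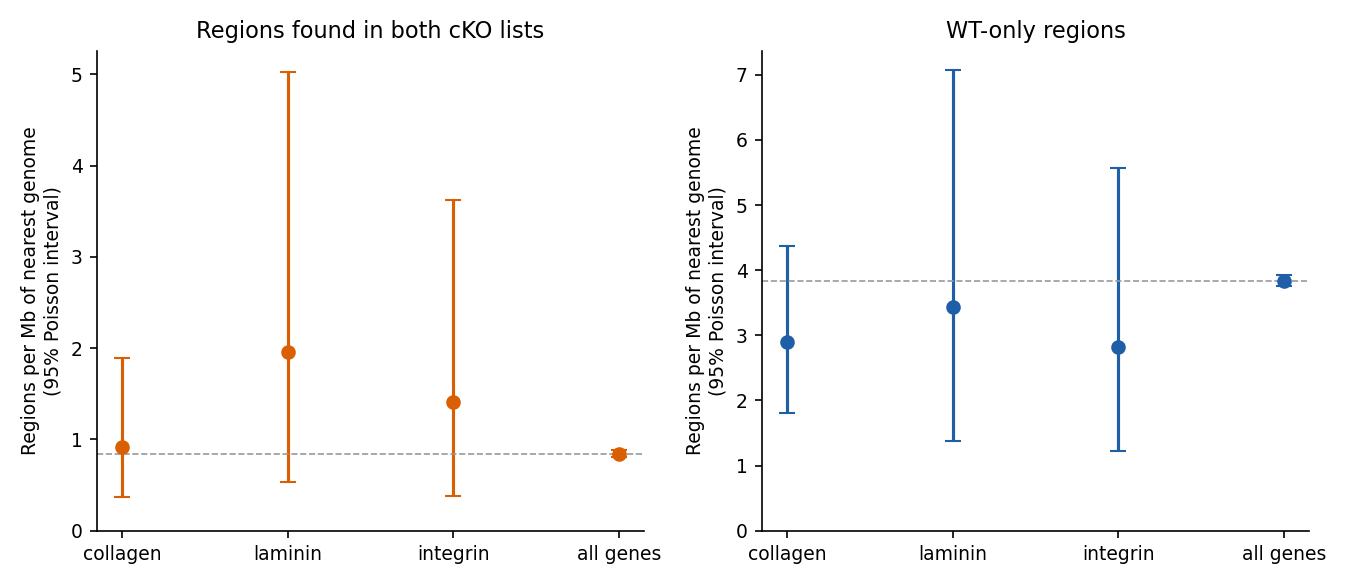
Regions per megabase of nearest genome with 95% Poisson intervals, for regions found in both cKO lists (left) and WT-only regions (right), in the 3 families and in all protein-coding genes (dashed line), each panel with its own scale from 0. For WT-only regions the families lie at 2.89, 3.43 and 2.83 per megabase, below the 3.84 of all genes, which their intervals include.

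WT-only regions at the 79 genes were of ordinary strength. The authors' fold enrichment, the ratio of the summit pileup plus 1 to the local background plus 1, had a median of 7.02 over the 37 regions and 7.51 over all WT-only regions. The smallest fold that a cKO library could call at its median background was 3.18 and 3.29 in replicates 1 and 2. Both WT folds were above both limits in all 37, and in 99.1% of all WT-only regions. The same limit was 3.53 and 3.01 in WT replicates 1 and 2. Nearly any region called in both WT lists therefore passes the cKO limits, and this count cannot separate strong from weak sites. After dividing the weaker of each pair of WT folds by 2, 15 of the 37 remained above both limits (40.5%), against 45.5% of all WT-only regions. Signal below these limits was not measured in the cKO.

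Among the ligands, the strongest site was in Col4a3. Col4a3 and Col4a4 encode chains of the type IV collagen network best known from the kidney filter, and they lie head to head on chromosome 1. The Col4a3 region chr1:82687717-82688553 had folds of 27.0 and 42.7 in WT replicates 1 and 2, from summit pileups of 63 and 141 reads, and no region was called there in either cKO list. Its mean of 34.9 ± 11.1 (SD, n = 2) ranked 67 among the 10090 regions of both WT lists. Around it the WT lists held a second Col4a3 region at 10.2 ± 1.86 and 4 regions in the body of Col4a4. The highest of these 4, chr1:82543396-82544860, had 7.48 and 14.4 in the WT replicates, and the others averaged 4.80 to 9.13. In region numbers, Col4a4 had 0 and 0 in cKO and 5 and 7 in WT, and Col4a3 had 0 and 0 in cKO and 2 and 3 in WT. None of these lay within 1 kb of a gene end, so the stretch where the genes meet carried no region in any list.

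**Figure D3:**
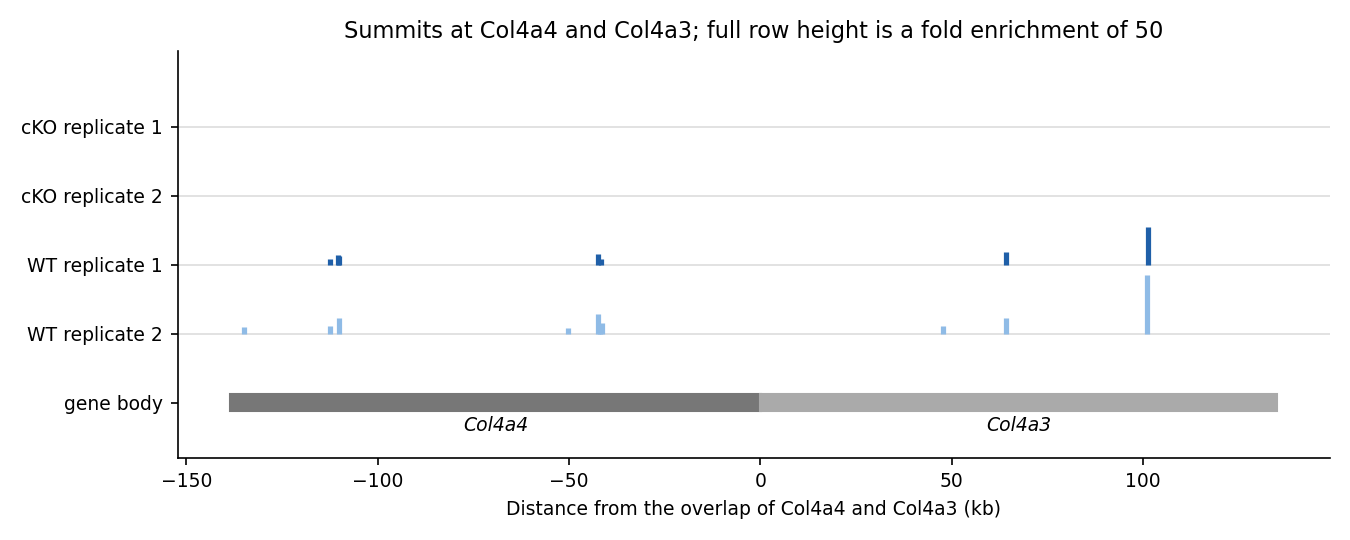
Summits of the 4 libraries at Col4a4 and Col4a3, plotted by distance in kb from the overlap of the gene bodies, with bar height giving fold enrichment. The cKO rows are empty, and the highest bars are the Col4a3 summits at 27.0 and 42.7 in WT replicates 1 and 2.

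The type IV chains found in nearly all basement membranes had less. Col4a2 had 1 and 0 regions in the cKO replicates and 1 and 5 in the WT replicates, with a WT-only region in its body at 7.32 and 11.1. Col4a1 had 1 and 0 in cKO and 1 and 1 in WT, and none of these overlapped another. Col4a5 and Col4a6 had no region in any list. Network collagens in all had WT-only regions at 4 of 9 genes and regions of both cKO lists at 0 of 9, against 16.6% and 6.83% of all genes.

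The multiplexin gene Col18a1, whose product sits in basement membranes and releases endostatin, held a WT-only and a kept region in the same gene body. At chr10:77150772-77152083 the WT replicates had folds of 12.9 and 18.2, and neither cKO list had a region. Elsewhere in the body, at chr10:77130527-77130937, the cKO replicates had 13.1 and 16.9 and the WT replicates 5.90 and 6.60. Summit pileups at this kept site were 100 and 90 reads in cKO and 17 and 24 in WT, over local backgrounds of 6.70 and 4.39 in cKO and 2.05 and 2.79 in WT. In Col15a1, the other multiplexin gene, a region had 4.89 and 7.71 in the cKO replicates and was not called in WT, and 3 regions of WT replicate 2 lay elsewhere.

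Among the fibril-associated and membrane-spanning collagens, the genes with WT-only regions included Col12a1 and Col25a1. Col12a1, which encodes a collagen that decorates fibrils, had 0 and 0 regions in cKO and 2 and 5 in WT. Its strongest had 11.9 and 16.8 in the WT replicates (chr9:79605798-79606355). Col25a1, a membrane-spanning collagen gene of neurons, had a single WT-only region with 9.25 and 12.01. Col14a1 had 0 and 0 in cKO and 1 and 6 in WT, the shared one 23722 bp outside the gene at 5.86 ± 1.42. Col22a1 had 2 WT-only regions at 6.97 ± 2.09 and 5.05 ± 1.17, and a different region found in both cKO lists at 6.63 and 10.4. Fibril-associated collagens had WT-only regions at 5 of 9 genes, membrane-spanning and multiplexin collagens at 4 of 6, and the remaining collagens, of types VI, VII, XXVI and XXVIII, at 0 of 9, against 16.6% of all genes. Per megabase of nearest genome they numbered 4.31 (1.73 to 8.88), 2.83 (0.771 to 7.25) and 0 (0 to 2.95), against 3.84 for all genes.

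Of the 4 regions found in all 4 lists, 2 were at fibrillar collagens. Col1a1, the alpha-1 chain of type I collagen, had a region within 1 kb of a gene end in all 4 lists, with 13.8 and 11.5 in the cKO replicates and 7.80 and 5.84 in the WT replicates (chr11:94936834-94937279). In Col27a1, a fibrillar collagen gene of cartilage, a region in the body was also in all 4 lists, with 6.06 and 7.68 in cKO and 5.18 and 7.25 in WT. The Col27a1 promoter window shown above carried a second region, with 5.38 and 4.21 in cKO and none in WT. Col23a1, a membrane-spanning collagen gene, had a region in both cKO lists at 7.07 and 6.21 and in WT replicate 2 at 7.19. Col1a1, Col27a1 and Col23a1 each also had a WT-only region elsewhere. At Col1a1 it had 4.50 and 6.47 in WT replicates 1 and 2, at Col27a1 7.71 and 6.33, and at Col23a1 5.63 and 8.58. Col26a1 had a region in cKO replicate 2 at 5.60 and in both WT lists at 6.40 and 12.01. Fibrillar collagens had WT-only regions at 3 of 11 genes, against 16.6% of all genes. Per megabase of nearest genome they numbered 1.59 (0.329 to 4.66), against 3.84 for all genes.

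Laminin genes with WT-only regions included Lama1, Lama2 and Lamb1. Lama2, the alpha chain of the main laminin of muscle and nerve, is the longest of the 79 genes, and it had 1 and 1 regions in cKO and 3 and 7 in WT. Its 3 WT-only regions averaged 12.2 ± 1.02, 8.90 ± 1.25 and 8.41 ± 1.41, and its cKO region was elsewhere in the gene at 7.60 and 5.99. Lama1, an alpha chain of early embryonic basement membranes, had 1 and 1 regions in cKO and 3 and 3 in WT. The cKO region lay at a gene end and was in all 4 lists, with 6.41 and 10.2 in cKO and 4.26 and 5.57 in WT. The other 2 Lama1 regions were WT-only, at 5.96 ± 0.300 and 5.80 ± 0.241. Lamb1 had 0 and 0 regions in cKO and 1 and 5 in WT, the shared one 42411 bp before its 5′ end at 4.37 ± 0.481, the lowest of the 37.

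The remaining laminin genes had regions mainly in single lists or in the cKO lists. Lamc1 encodes the gamma chain of most laminins and was the 1 gene of the 79 (1.27%) with more regions in both cKO lists than in both WT lists, against a background of 1.7%. It had 2 and 2 in cKO and 0 and 1 in WT. The 2 of cKO replicate 1 lay side by side at the same gene end (chr1:153332133-153332314 and chr1:153332450-153332714). Counted as 1, they would not have exceeded the WT replicate 2 number. A region at a gene end had 5.03 and 3.33 in the cKO replicates and was not called in WT. Its cKO replicate 2 peak had a −log10 q-value of 1.90, below the stricter threshold of 3. Without that peak, Lamc1 would not have had more regions in both cKO lists than in both WT lists. The other cKO replicate 2 region, at 4.50, overlapped the WT replicate 2 region, at 3.96. Lama3 had a region in both cKO lists at 6.58 and 4.21, and a different one in WT replicate 1 alone at 19.1. Lama5 and Lama4 had 2 and 1 regions in WT replicate 2 and none in the other lists, and Lamb2 had none in any list.

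Among the receptors, the clearest site was the promoter of Itgb8. The beta-8 subunit pairs with the alpha-v subunit, is made by neural progenitors and activates latent TGF-beta. The region chr12:119237960-119238917 had folds of 11.8 and 24.3 in WT replicates 1 and 2, from 27 and 80 reads at the summit, and no region was called in either cKO list. It covered the whole window printed above, with its summit 374 bp before the 5′ end. It was the only WT-only region within 1 kb of a 5′ end among the genes whose strand is known. Itgb6, whose product is an epithelial partner of alpha-v, had the second highest mean fold among integrin regions shared by both WT lists, 17.6 and 17.9 in the WT replicates at chr2:60713830-60714674 in its body. Itgb6 had 0 and 0 regions in cKO and 2 and 5 in WT. Itgb5, another partner of alpha-v, had 0 and 0 in cKO and 2 and 6 in WT, with 1 WT-only region at 7.52 ± 0.279.

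Collagen-binding alpha subunits also had WT-only regions. Itga1 had 8.14 and 15.3 in the WT replicates at chr13:114992091-114992984, Itga2 had 5.94 ± 0.190, and Itga10 had 7.06 ± 2.22 near its 3′ end, none with a region in a cKO list. Itga11 had no cKO region, and WT replicate 1 held a region 69220 bp before its 5′ end at 46.2, from 81 reads, that WT replicate 2 lacked. This single-library region was named after its value was seen.

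Of the laminin-binding receptor genes of radial glia named here, Itga6 alone had a region in both WT lists. Itga6, the alpha subunit of the main laminin receptor on radial glia, had 0 and 0 regions in cKO and 2 and 7 in WT. Its 1 WT-only region lay 99665 bp outside the gene at 6.34 ± 0.205, just inside the 100 kb limit. Just outside it lay another Itga6 region at 103449 bp with 6.94 and an Itga4 region at 102712 bp with 16.2, which were not counted. Itgb1, the beta subunit shared by most laminin and collagen receptors, had 0 and 0 regions in cKO and 1 and 1 in WT. The WT replicate 1 region lay 39 bp before its 5′ end at 4.64, and the WT replicate 2 region lay 30754 bp before it at 6.83, so the WT lists shared none. Itga3 had a region in both cKO lists at 7.09 and 5.18 and in WT replicate 1 at 4.62. Itga7 and Itgb4 had no region in any list.

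Other alpha subunits had regions that stayed in the cKO. Itga9, whose product binds tenascin, had a region at its 5′ end in both cKO lists at 3.66 and 6.33 and in WT replicate 2 at 4.70. A second Itga9 region, 7353 bp beyond its 3′ end, had 5.22 and 3.51 in cKO and 5.41 in WT replicate 2. Itga5, the fibronectin receptor subunit, had 4.31 and 4.84 in cKO and 3.76 in WT replicate 2. None of the 3 was in both WT lists. Regions of both cKO lists were at 3 of 12 integrin alpha and 0 of 9 integrin beta genes, against 6.83% of all genes, and the difference between the groups was not tested. WT-only regions were at 4 of 12 alpha and 3 of 9 beta genes, against 16.6%. Per megabase of nearest genome they numbered 2.34 (0.637 to 5.98) and 4.05 (1.10 to 10.4), against 3.84 for all genes.

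**Figure D4:**
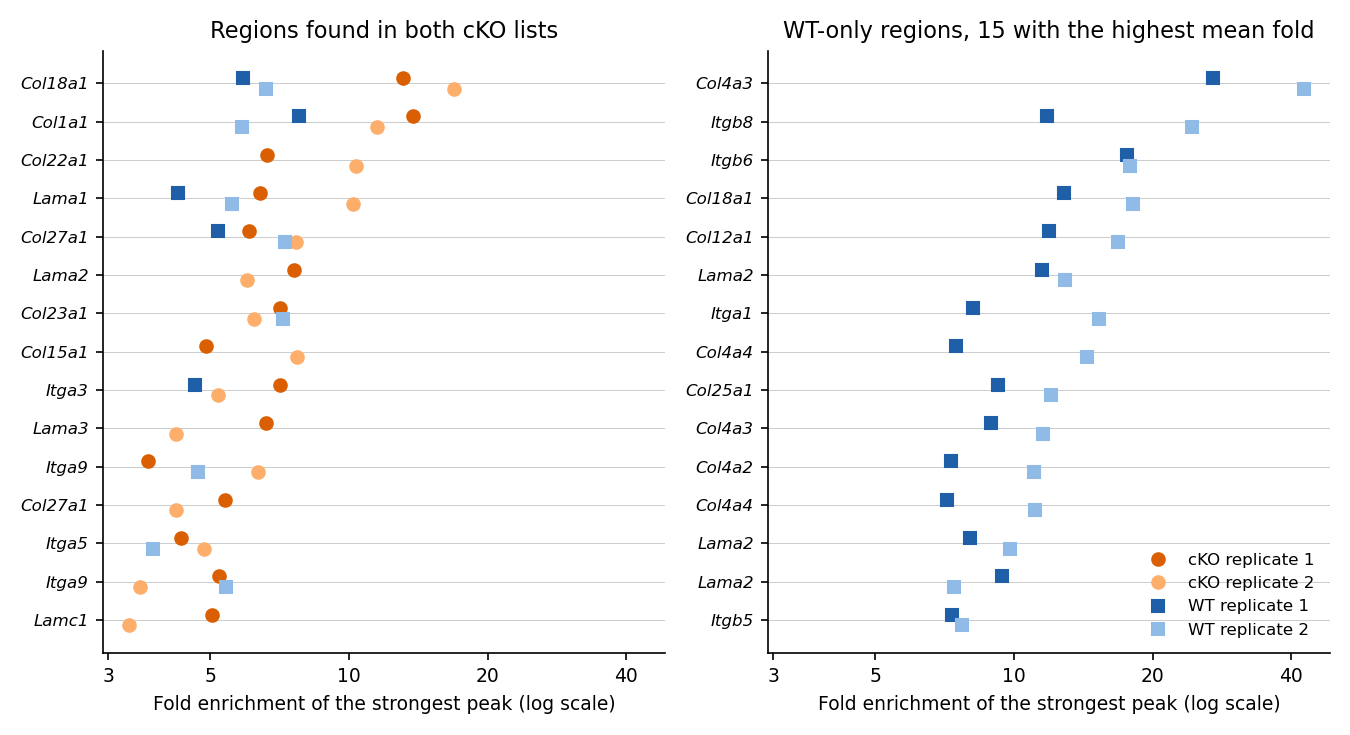
Fold enrichment (log scale) of the strongest peak in each library at the 15 regions found in both cKO lists (left) and the 15 WT-only regions with the highest mean fold (right), with cKO as circles and WT as squares. A missing symbol means that the list has no region there, and of the 4 regions with all 4 symbols both WT symbols lie left of both cKO symbols at Col18a1, Col1a1 and Lama1.

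In all, both cKO lists shared 15 regions at 13 of the 79 genes (16.5%), against a background of 6.83%. Of the 15, 9, at 8 genes (10.1%), overlapped a region of at least 1 WT list, against 3.72% of all genes, and 6, at 6 genes (7.59%), overlapped none, against 3.43% of all genes. Of the 42 regions shared by the WT lists, 5, at 5 genes (6.33%), overlapped a cKO region, against 3.22%. These gene shares do not take gene size into account. By family, regions in both cKO lists lay at 6 of 44 collagen, 4 of 11 laminin and 3 of 24 integrin genes. Of the 4 regions found in all 4 lists, those at Col18a1, Col1a1 and Lama1 had both cKO folds above both WT folds. Without the 1 that the fold adds to pileup and background, an alternative chosen after seeing the data, this no longer held at Col1a1, where the ratios were 17.2 and 14.2 in the cKO replicates and 16.3 and 8.17 in the WT replicates. Folds of different libraries rest on different depths and backgrounds, so this is a description and not a measured gain. Col6a1 and Itgb2l were the only members with a cKO region and no WT region, each in a single list. That is 2 of the 79 genes, against 1356 of all 21887 protein-coding genes. The Itgb2l region also lay in the gene Igsf5 and was counted for both.

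Counted gene by gene, 25 of the 79 genes (31.6%) had fewer regions in both cKO lists than in both WT lists, against a background of 15.7%. They were 12 collagen, 4 laminin and 9 integrin genes. Without WT replicate 1 the number was 47 against 29.1%, and with lists of equal length it was 5 against 3.80%. No region in any list was assigned to 19 of the 79 (24.1%), against 56.1% of all genes, and 16 (20.3%) had regions in WT replicate 2 alone, against 9.79%. None of these gene shares takes the greater size of the 79 genes into account.

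**Figure D5:**
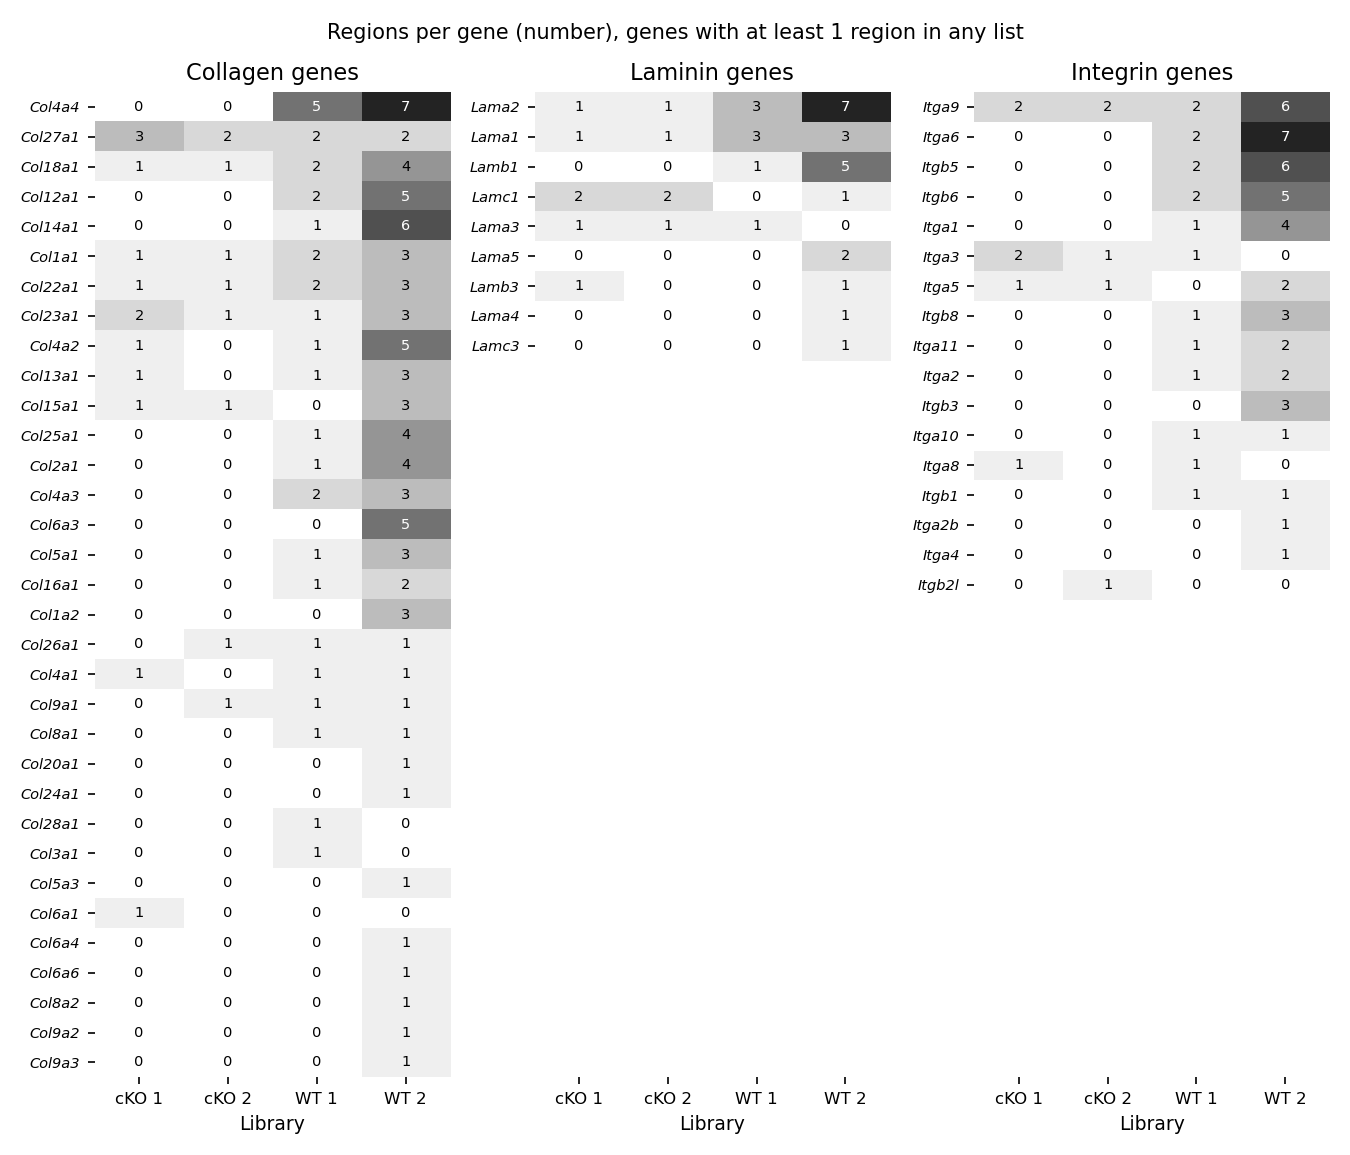
Number of regions in each of the 4 libraries for genes with at least 1 region in any list, by family, with darker cells for higher numbers. Col4a4, Lama2 and Itga6 reach 7 in WT replicate 2, and Lamc1 is the gene with more regions in both cKO lists than in both WT lists.

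WT-only regions at the 79 genes lay mostly inside the genes. Of the 37, 28 (75.7%, 95% Wilson interval 59.9 to 86.6) were in a gene body more than 1 kb from an end, 3 (8.11%) were at a gene end and 6 (16.2%) were outside. Over all WT-only regions assigned to a gene, 58.6% were in a body, 6.81% at an end and 34.6% outside. The part of gene length in this difference was not tested. Of the 21 WT-only regions inside genes of known strand, 10 had their summit nearer to the 5′ end than to the 3′ end. Among the 15 regions of both cKO lists, 4 (26.7%, 10.9 to 52.0) were at a gene end, against 39.4% for all genes. Gene ends here are the outer ends of the gene. The cKO region on the Col27a1 promoter window was counted as gene body, although its summit lay 93 bp before an annotated start. Median width was 570 bp for the 37 and 549 bp for all WT-only regions.

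Other genes of the same matrix pathway were counted for comparison. WT-only regions were at 8 of 13 genes of other basement membrane and matrix proteins, with a density of 7.23 per megabase, and at 7 of 16 genes of the integrin adhesion complex, with 5.90. They were at 2 of 16 genes of collagen maturation, with 1.92, and at 0 of 6 integrin genes named by a letter, such as Itgav. The background is again 16.6% of genes and 3.84 per megabase. Regions in both cKO lists were at 1, 2, 2 and 1 of the genes in these 4 lists, in the same order, against 6.83% of all genes.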

How the data were processed

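PRDM16 ChIP-seq peak lists of 2 cKO and 2 WT libraries were used; input libraries were not analysed here. FastQC, cutadapt, Bowtie2 2.2.8, MACS2 2.1.1 and mm10 are named in the submitters' processing notes, without settings. The authors deposited 1 narrowPeak list per library with a fold (ratio, each term with 1 added), −log10 of the p-value and q-value and a score, which was not used. Lists held 4553 and 3088 (cKO) and 13852 and 26652 (WT) regions on chromosomes 1 to 19, X and Y, and no intervals overlapped within a list. Read totals are not in the lists. Summit pileups in reads were solved from the deposited fold and p-value, and came out whole (within 0.0001 of the listed −log10 value, relative to it where above 1) for 99.9% to 100% of regions. The smallest background was 2.95 and 2.52 reads in cKO and 0.777 and 1.78 in WT.

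Regions shared by lists overlap by at least 1 bp. A shared region spans the joined peaks, its fold is the mean of each replicate's strongest peak, and its summit is that of the higher fold. A summit inside several genes counted for each. Genes came from RefSeq GRCm38.p6, and exons were not separated. Replicates are separate samples per the labels, so p-values measure only the spread between these samples. Genes named were, by rule, in each family the 5 with the highest shared WT fold and the 3 with most WT regions, all with a region in both cKO lists, a list of basement membrane genes and receptors, and those with cKO regions alone; 1 gene is counted but not reported here. Col26a1, Itga2, Itga4, Itga11, Col4a5 and Col4a6 fall outside that rule and were named after their values were seen. Members and lists were chosen with earlier results of these data known. Python 3.11.15, pandas 2.3.3 and scipy 1.17.1 were used, and the steps were tested on simulated data. Alternatives were stricter thresholds, equal list lengths, shorter distances, another overlap, other members, each library left out and a replicate block.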

Additional observations from a re-analysis of the deposited data

How the results depend on the processing

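A recomputed value was called kept when its direction held or it stayed within the main interval. A count was called kept within a set ratio of the main count. Among the values that answer a comparison, 61 were kept, 5 moved and 1 reversed. Among the other values, those of families and single genes included, 401 stayed, 71 moved and 7 reversed. Some kept values could not change. No intervals overlapped within a list, the genes without a subunit had no region, and the other overlap does not enter counts per library. With lists of equal length, the ratio of cKO to WT region numbers reversed to 1.90 for all members. By family it was 1.82 for collagen, 3.67 for laminin and 1.29 for integrin genes. At the members, this setting removed most WT regions and few cKO regions. Their mean share of a list was then 0.648% in cKO and 0.340% in WT, against 0.582% and 0.478% in the full lists. The part of list length in the reversal was not tested. With equal lengths, the genes with WT-only regions numbered 7 and those with fewer regions in both cKO lists 5. Leaving out 1 library at a time gave ratios of 0.150 to 0.393 for all members, 0.138 to 0.355 for collagen, 0.239 to 0.611 for laminin and 0.125 to 0.344 for integrin genes, 27 to 51 genes with WT-only regions and 27 to 47 genes with fewer regions in cKO, and the density of WT-only regions relative to all genes was 0.750 to 1.03. With summits inside genes alone, 96.6% of WT-only regions were in the body, by construction. The share of a list, cKO minus WT, ranged from -0.0117 to 0.0647 percentage points for collagen and from -0.0182 to 0.0313 for integrin genes when 1 library was left out (integrin: -0.00852 without cKO replicate 2), and was -0.00710 for integrin genes with summits inside genes alone; for all members it stayed above 0 under each alternative. With the replicate number as a block, the ratio was 0.240 and the share difference 0.104 percentage points, each with an exact permutation p of 0.5, the smallest that 2 pairs allow; no label says that the numbers pair the samples. Groups of 2 libraries and families of 5 to 80 regions limit all of these values.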
